A study of Mus musculus with 63 samples.

Results

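The genes described are 10 mouse genes for secreted proteins of the salivary glands, namely Pip, Car6, Chia1, Bpifa2, Smr3a, Amy1, Dcpp1, Dcpp3, Cst10 and Prol1, measured in lymph node lymphoma samples. They are 10 of 19938 genes with a probe set that carries a single gene symbol, and each was read from the 1 such probe set it has. The genes were chosen because these same arrays showed them high in some samples and low in others, so their pattern over arrays is given as a description and is not tested. All 63 arrays held RNA from lymphoma cells of lymph nodes of Emu-myc transgenic mice on the C57BL/6 strain, in which a Myc transgene under an immunoglobulin heavy-chain enhancer gives B-cell lymphomas. Of these arrays, 31 were labelled CTX 4h, a label that names cyclophosphamide, an alkylating agent that damages DNA, and a time of 4 h, and the other 32 native. RNA input to labelling was 300 ng in 2 CTX 4h and 17 native arrays, and 100 ng in 29 CTX 4h and 15 native arrays. The 100 ng labels add that the cells were not purified. For the 29 CTX 4h arrays at 100 ng a dose of 300 mg/kg is given, for the drug in transplanted recipient mice. The 300 ng labels give neither purification nor dose. Since the series' design text mentions only therapy-naive lymphomas, each array was grouped by its own label. Each array has a lymphoma number, used below to name it, and these numbers begin with 1 (13 arrays), 8 (24 arrays) or 9 (26 arrays). What the first digit stands for is not given in the labels. The labels give neither the site of the nodes nor the age of the mice, nor do they say which arrays come from separate mice.

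Saliva in the mouse comes from 3 pairs of major glands, the parotid, submandibular and sublingual glands, which lie in the neck close to the cervical lymph nodes. Their acinar cells make and store secreted proteins in bulk, so a few genes take a large share of the RNA in these glands. Glands differ in what they secrete: amylase and parotid secretory protein are known as parotid products, demilune cell and parotid proteins come from sublingual demilune cells and the parotid, and Prol1, also named Muc10, encodes a mucin-like protein of the submandibular gland.

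The stretches in front of 6 of the genes are shown because these genes moved together over arrays (Bpifa2, Smr3a, Pip), stood apart (Prol1) or have near-identical promoters (Dcpp1 and Dcpp3). Each runs from 100 bases before the gene's start to 40 after it on the gene's strand, from RefSeq, build GRCm38.p6, and capitals mark each TATAA on that strand, a core promoter motif. All lie on the plus strand.
Bpifa2, chr2:154008176-154008315: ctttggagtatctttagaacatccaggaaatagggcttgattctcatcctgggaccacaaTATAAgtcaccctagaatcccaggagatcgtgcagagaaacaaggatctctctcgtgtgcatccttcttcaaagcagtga
Smr3a, chr5:88002425-88002564: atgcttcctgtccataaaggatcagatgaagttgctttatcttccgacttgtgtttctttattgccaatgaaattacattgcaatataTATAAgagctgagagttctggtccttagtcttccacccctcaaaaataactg
Pip, chr6:41847449-41847588: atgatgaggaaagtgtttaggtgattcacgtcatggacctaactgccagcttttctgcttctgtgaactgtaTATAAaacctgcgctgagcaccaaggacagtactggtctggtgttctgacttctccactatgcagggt
Prol1, chr5:88317212-88317351: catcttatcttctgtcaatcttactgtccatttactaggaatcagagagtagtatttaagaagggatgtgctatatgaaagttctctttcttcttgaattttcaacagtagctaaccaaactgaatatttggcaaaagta
Dcpp1, chr17:23880776-23880915: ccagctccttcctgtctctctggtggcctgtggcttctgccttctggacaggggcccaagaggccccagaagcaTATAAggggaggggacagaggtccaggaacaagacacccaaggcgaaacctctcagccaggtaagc
Dcpp3, chr17:23917358-23917497: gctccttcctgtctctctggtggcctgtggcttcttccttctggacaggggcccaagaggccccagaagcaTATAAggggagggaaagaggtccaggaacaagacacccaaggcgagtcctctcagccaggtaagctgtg
All 10 genes matched the promoter table, Amy1 with more than 1 start. TATAA on either strand stood in the 300-base promoters (250 before to 50 after the start) of 7 of the 10 genes, against 24.9% of 32851 promoters of all genes. On the gene's strand between 40 and 20 bases before the start it stood in 4 of the 10, against 3.52% of all promoters. These counts are per gene and the shares per promoter. Amy1 is in the first count although not all of its starts had TATAA. Dcpp1 and Dcpp3 are counted separately in both despite near-identical promoters. Prol1, Car6 and Cst10 held no TATAA in these windows. The 300-base promoters of Dcpp1 and Dcpp3 were identical at 95.1% of aligned positions, and those of Dcpp2 and Dcpp3 at 96.4%. The other 52 pairs, without the 3 pairs among Dcpp genes, had 45.3% to 53.3%. Whether the Dcpp probe sets tell these genes apart was not tested, and their values are uncertain in this respect.

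Over the 63 arrays these genes had some of the widest spreads of all genes measured. Bpifa2, which encodes parotid secretory protein, ranked 1 of 19938 genes by SD over arrays, with 3.37 on the log2 scale. Pip, for prolactin-induced protein of saliva and tears, ranked 2 (SD 3.07) and Chia1, for the acidic chitinase, ranked 3 (SD 3.04). Smr3a, for a submaxillary gland androgen-regulated protein, ranked 5 and the amylase gene Amy1 ranked 6. Car6, for the secreted carbonic anhydrase of saliva, ranked 7, Dcpp1 ranked 8, the cystatin gene Cst10 ranked 9 and Dcpp3 ranked 12. Prol1 ranked 82 with an SD of 1.28, while the median SD over all genes was 0.32.

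Pip (probe set 10537679) was at 2.94 in native lymphoma 8747, had a median of 6.62 and reached 14.43 in CTX 4h lymphoma 9189. Bpifa2 (probe set 10477450) lay between 4.47 in native lymphoma 9174 and 14.95 in CTX 4h lymphoma 9189, with a median of 8.65. Both genes thus covered most of the scale of the arrays. Chia1 (probe set 10495136) lay between 5.10 and 14.89, Car6 (10518751) between 3.57 and 14.28, Dcpp1 (10442370) between 5.56 and 14.38 and Amy1 (10501555) between 4.47 and 13.97. Smr3a (10522911) ran between 3.79 and 13.30, Cst10 (10476931) between 3.96 and 12.27 and Dcpp3 (10442375) between 4.68 and 12.20. Prol1 (10522925) was at or below 8.39 in 62 arrays and at 11.40 in native lymphoma 9820. The values are per probe set and not per length of transcript, so the order of the genes among themselves is not read from them.

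**Figure D1:**
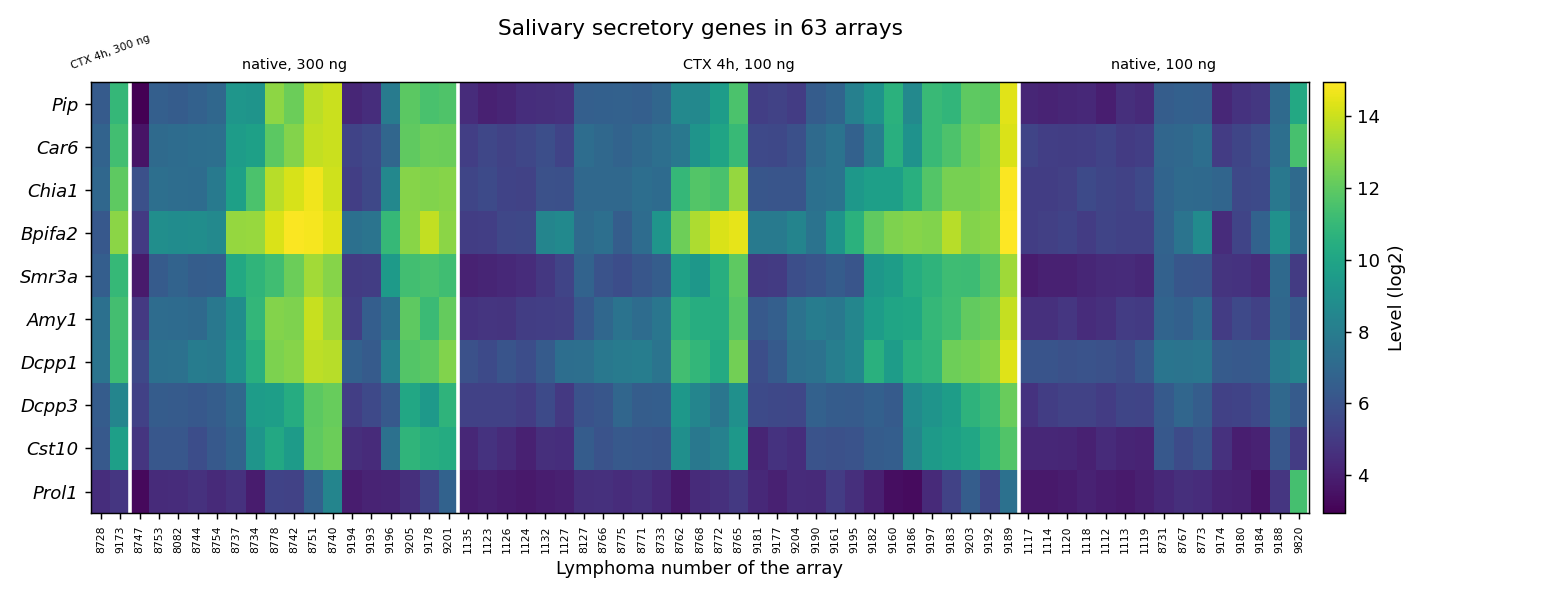
Level of the 10 genes (rows, log2, colour scale at the right) in each of 63 arrays (columns, named by lymphoma number), set out by treatment and RNA input and, within each set, by first digit of the number and mean level. Bright columns run through 9 of the 10 rows together, in CTX 4h lymphoma 9189 and native lymphomas 8740 and 8751 most of all, and the columns whose number begins with 1 are dark in nearly all rows.

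To count arrays, a gene was called on in an array at 2 or more log2 units above its own 10th percentile over the 63 arrays. An array was called on with at least 6 of the 10 genes on, partly on with 1 to 5 and off with 0. By this count 27 arrays were on, 21 partly on and 15 off. Among CTX 4h arrays 14 of 31 were on and 4 off, and among native arrays 13 of 32 were on and 11 off. Read against 3 log2 units in place of 2, the on arrays were 13 of 31 CTX 4h and 9 of 32 native.

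RNA input and treatment crossed each other in these counts. Among 300 ng arrays 1 of 2 CTX 4h and 12 of 17 native were on. Among 100 ng arrays 13 of 29 CTX 4h and 1 of 15 native were on. With the 3-unit limit the counts were 1 of 2 CTX 4h and 9 of 17 native at 300 ng, and 12 of 29 CTX 4h and 0 of 15 native at 100 ng. The 1 native 100 ng array on at the 2-unit limit was lymphoma 9188, with 6 genes on and Bpifa2 at 9.004.

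The first digit of the lymphoma number also went with the pattern. No array out of the 13 with numbers that begin with 1 was on, against 12 of 24 with 8 and 15 of 26 with 9. All 13 arrays of the first kind had 100 ng input, 6 CTX 4h and 7 native. Within the 100 ng arrays the on counts for numbers that begin with 8 were 4 of 9 CTX 4h and 0 of 3 native, and for those with 9 they were 9 of 14 CTX 4h and 1 of 5 native. At 300 ng, 8 of 11 native arrays with numbers in 8 and 4 of 6 with numbers in 9 were on, while the CTX 4h array with 8 was partly on and that with 9 was on. With 15 native 100 ng arrays of which 7 begin with 1, first digit and RNA input overlap in the native group and cannot be fully told apart.

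**Figure D2:**
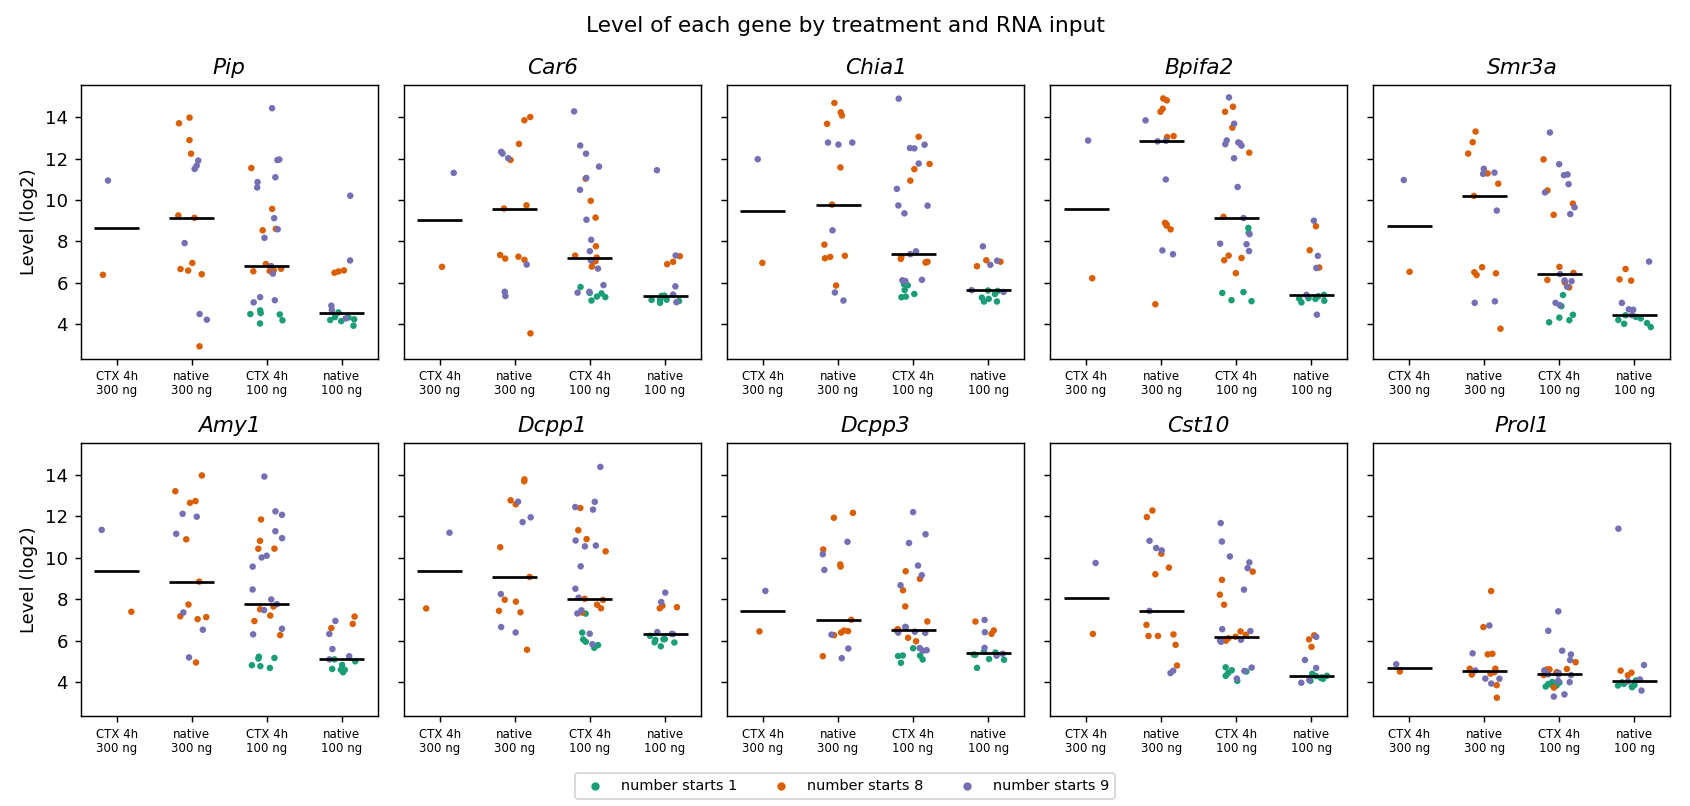
Level (log2) of each gene in every array (points, coloured by the first digit of the lymphoma number) by treatment and RNA input, with the median of each set as a line. For Bpifa2 the medians are 12.83 in native 300 ng and 5.42 in native 100 ng arrays, the groups overlap in every panel, and the single high native 100 ng point of Prol1 is lymphoma 9820.

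Bpifa2 showed the split most widely. At 300 ng it had 6.23 and 12.87 in the 2 CTX 4h arrays, against a lowest value of 4.97, a median of 12.83 and a highest of 14.90 in 17 native arrays. At 100 ng it had a lowest value of 5.12, a median of 9.13 and a highest of 14.95 in 29 CTX 4h arrays, against 4.47, 5.42 and 9.004 in 15 native arrays. The sets overlapped at both inputs, and no native 100 ng array passed 9.004.

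For Smr3a the 300 ng arrays had 6.54 and 10.96 in CTX 4h, against 3.79, 10.20 and 13.30 (lowest, median, highest) in native. The 100 ng arrays of Smr3a had 4.10, 6.43 and 13.26 in CTX 4h, against 3.87, 4.44 and 7.03 in native. As for Bpifa2, native arrays were higher at 300 ng than at 100 ng by their medians, with overlap at the low end.

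Amy1, which digests starch, had 7.39 and 11.34 in the 300 ng CTX 4h arrays, against 4.94, 8.84 and 13.97 in the native ones. Its 100 ng levels were 4.68, 7.75 and 13.91 in CTX 4h, against 4.47, 5.09 and 7.16 in native arrays. No native 100 ng array reached the median of the CTX 4h 100 ng arrays for this gene. Pip had 6.39 and 10.94 in CTX 4h at 300 ng, against 2.94, 9.14 and 13.98 in native. At 100 ng Pip had 4.04, 6.81 and 14.43 in CTX 4h, against 3.93, 4.57 and 10.21 in native, the last value from lymphoma 9820.

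Chia1 and Cst10 followed the same order of medians. At 300 ng Chia1 had 6.97 and 11.97 in CTX 4h, against a median of 9.78 in native arrays. Its 100 ng medians were 7.39 in CTX 4h and 5.63 in native arrays. For Cst10, an inhibitor of cysteine proteases by its family, the 300 ng arrays had 6.32 and 9.74 in CTX 4h, against a median of 7.43 in native. Its 100 ng medians were 6.18 in CTX 4h and 4.299 in native arrays. At 100 ng the medians of Car6, Dcpp1 and Dcpp3 were 7.22, 8.01 and 6.49 in CTX 4h, against 5.39, 6.31 and 5.42 in native arrays. Their native medians at 300 ng were 9.59, 9.07 and 7.003. Prol1 had the same order with smaller gaps, with 100 ng medians of 4.37 in CTX 4h and 4.04 in native arrays and a native median of 4.55 at 300 ng.

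Within a first digit, the spread was as wide as over the whole series for 8 and 9 and narrow for 1. Over the 13 arrays with numbers in 1, Pip ranged over 3.93 to 4.67, Amy1 over 4.47 to 5.22 and Prol1 over 3.75 to 4.07. Bpifa2 was wider, with 8.42 in CTX 4h lymphoma 1132 and 8.65 in CTX 4h lymphoma 1127, against 5.06 to 5.56 in the other 11 arrays. Lymphoma 1127 also had the highest Dcpp1 (7.30) and Smr3a (5.41) of the 13, whose lowest values were 5.65 and 3.87. For numbers in 8 Pip ranged over 2.94 to 13.98, and for numbers in 9 over 4.22 to 14.43.

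The count of genes on in an array went with which genes they were. In the 6 arrays with a single gene on, that gene was Bpifa2 in all 6. Dcpp3 was on only in arrays with 9 or 10 genes on, which were 19 arrays (11 CTX 4h and 8 native). Bpifa2 was on in 43 arrays, Pip in 41, Amy1 in 38, Smr3a in 33, Car6 and Cst10 in 30, Dcpp1 in 29, Chia1 in 28, Dcpp3 in 19 and Prol1 in 6. Prol1 was on in the 5 arrays with all 10 genes on and in native lymphoma 9820. Values near the limit were common: Cst10 had 6.22 just above and 6.18 just below its limit, and Smr3a 6.38 and 6.17. The limit of Pip, 6.23, fell in a gap between 5.31 and 6.39. Its 41 on arrays thus include 16 arrays at 6.39 to 7.08, described below. Within 0.5 log2 units of the limit lay 18 arrays for Car6 and Cst10, 15 for Smr3a, 12 for Pip (all above it) and 5 for Dcpp3.

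The values of Pip were read as 3 groups, of which the middle one was narrow. The lowest 22 arrays were at 5.31 or below, and the next 16 lay within 6.39 to 7.08. The highest 25 did not form a level of their own but spread over 7.92 to 14.43. In these 16 arrays Pip spanned 0.69, Dcpp1 0.72 (7.35 to 8.07), Prol1 0.73, Cst10 0.75 (5.69 to 6.44) and Car6 0.75 (6.78 to 7.53). Dcpp3 spanned 1.03, Chia1 1.04, Smr3a 1.24 and Amy1 1.72 (6.26 to 7.98). Bpifa2 had the widest span there, 2.96 (6.23 to 9.19). The middle group held 8 CTX 4h and 8 native arrays, 11 at 100 ng and 5 at 300 ng, of which 13 had numbers in 8 and 3 numbers in 9. None had a number in 1, although all 13 of those were among the lowest 22, together with 1 array in 8 (native lymphoma 8747) and 8 in 9. In the 16 arrays the median over all genes was 6.73 to 6.89, and the 10th percentile of the array 4.42 to 4.53. In the lowest 22 arrays these were 6.53 to 6.86 and 4.15 to 4.54. The limits of the groups were drawn after the values had been seen, and the part of array-wide shifts, which went in the same direction but were smaller, was not tested.

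**Figure D3:**
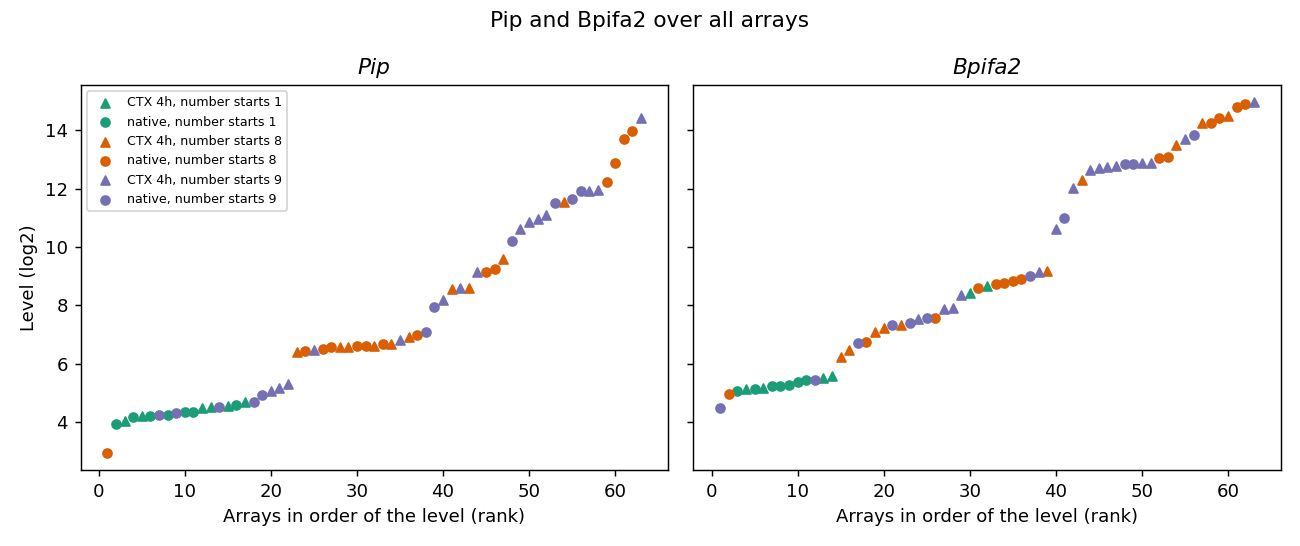
Pip and Bpifa2 levels (log2) of all 63 arrays in order of the level, with treatment as the symbol and the number's first digit as the colour. Pip shows a flat run between 6.39 and 7.08 made of 16 arrays, while Bpifa2 climbs with a gap of 1.44 between 9.19 and 10.63.

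Native lymphoma 8747 marked the low end. Its Pip of 2.94 and Car6 of 3.57 lay below all other arrays, the next Car6 value being 5.04, and it ranked 63 of 63 for Smr3a, Dcpp1 and Prol1 too. It had 300 ng input, as did 2 more native arrays of the lowest 22 for Pip. At the high end CTX 4h lymphoma 9189 and native lymphomas 8740 and 8751 filled the top 3 places for Pip, Car6, Smr3a, Amy1, Dcpp1, Dcpp3 and Cst10. One of these arrays had 100 ng input (9189) and the others 300 ng.

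Native lymphoma 9820 had another balance of these genes. It had the highest Prol1 of all arrays (11.40) and high Pip (10.21, rank 16 of 63) and Car6 (11.44, rank 12). Smr3a was at 5.03, Cst10 at 5.06, Amy1 at 6.32, Chia1 at 7.07 and Bpifa2 at 7.31, which gave these genes ranks of 35 to 46. Dcpp1 (8.31, rank 24) and Dcpp3 (6.40, rank 33) lay between. By the 2-unit limit Dcpp1 was on in this array, and so was Bpifa2, just above its limit of 7.23. In CTX 4h lymphoma 9189 and native lymphoma 8740, by contrast, Prol1 was at 7.41 and 8.39 with all other members at 11.67 or above. Scgb1b27 and Scgb2b27, secretoglobin genes known as salivary androgen-binding proteins, also had their highest values of all arrays in lymphoma 9820, 12.76 and 11.68. This array stood apart from the rest in general: its mean correlation to the other arrays was 0.906, the lowest of 63, its median over genes 7.11, the highest, and its Myc 11.39. Only native lymphoma 8740 had a lower Myc, 10.64, against a median of 13.22 over all arrays. Correlations and calls are therefore given below also without native lymphomas 9820 and 8740.

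**Figure D4:**
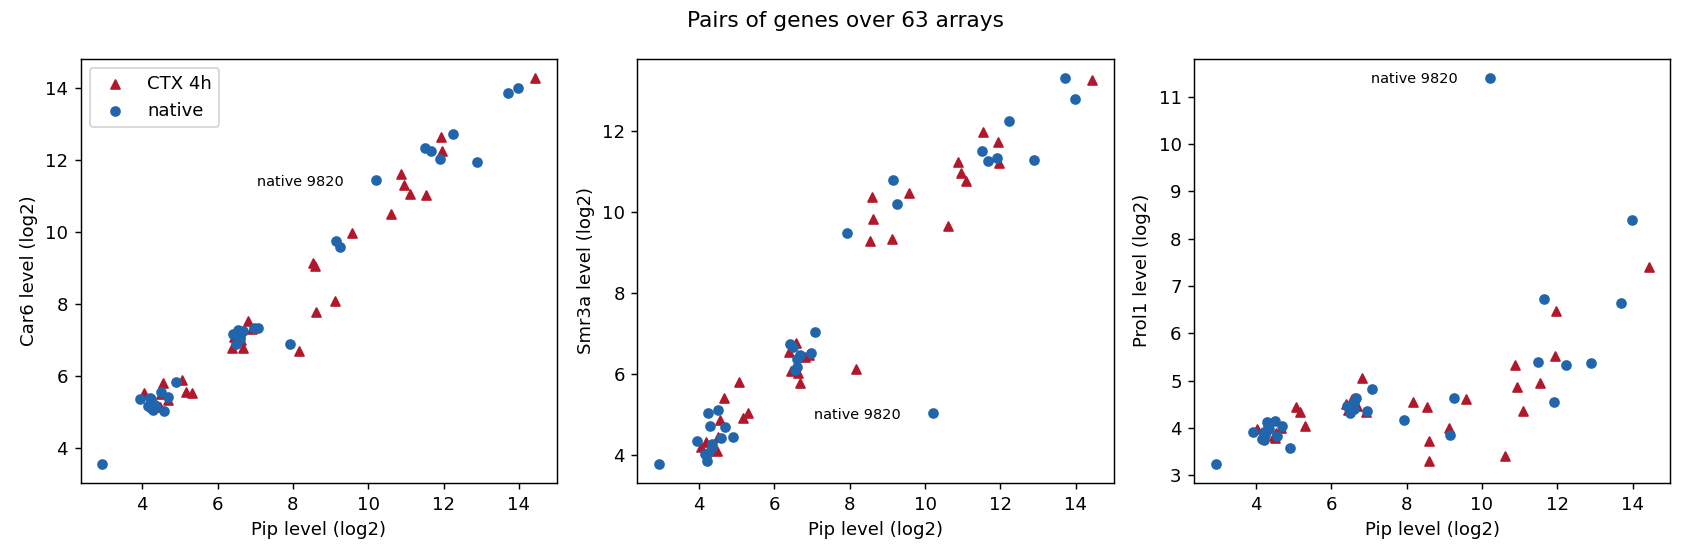
Car6, Smr3a and Prol1 levels (log2) against Pip level (log2) in 63 arrays, with CTX 4h as triangles and native as circles. Car6 follows Pip along a line including native lymphoma 9820, which has a lower Smr3a (5.03) than other arrays of like Pip and the highest Prol1 (11.40).

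Apart from Prol1 the genes varied together over arrays. Over 36 pairs of the 9 genes the median Pearson correlation was 0.95 over 63 arrays, with a lowest value of 0.86 for Dcpp3 with Bpifa2 and a highest of 0.98 for Car6 with Pip. The arrays share their normalization, and the genes were chosen for this pattern, so the correlations carry no test. The median was 0.95 in CTX 4h and 0.96 in native arrays, and 0.97 at 300 ng and 0.94 at 100 ng. By first digit it was 0.42 for numbers in 1, where levels were low throughout, 0.95 for numbers in 8 and 0.94 for numbers in 9. Inside the 22 arrays on at the 3-unit limit it was 0.87, and inside the other 41 it was 0.80. Both sets were drawn from the values of these genes. The 41 hold the low and the middle group of Pip, and above these CTX 4h lymphoma 9195 and native lymphomas 9820 and 9196. Whether the genes vary together within a group was not tested. The lowest pair among the 22 was again Dcpp3 with Bpifa2, at 0.49, followed by Cst10 with Bpifa2 at 0.51.

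Prol1 had correlations of 0.38 (with Bpifa2) to 0.66 (with Car6). Without native lymphoma 9820 these were 0.59 to 0.78, and the median over the other 36 pairs was 0.96. Without native lymphoma 8740 the range for Prol1 was 0.34 to 0.63 and the median of the 36 pairs 0.95, and without both arrays these were 0.59 to 0.76 and 0.96. Among the 22 arrays on at the 3-unit limit, which do not include lymphoma 9820, Prol1 had 0.57 to 0.84. Its level in these 22 arrays was 3.30 to 8.39 with a median of 4.91, while Bpifa2 was at 12.02 or higher in each.

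The genes most like the 10 were found by their Pearson correlation over the 63 arrays with the mean of the 10 genes after centring each. Over 19928 other genes the median correlation was 0.017, and 83 genes were at 0.5 or above and 5 at 0.9 or above. The 12 highest were 2310057J18Rik (0.99), BC037156 (0.96), Dcpp2 (0.93), Dnase1 (0.93), Lpo (0.90), Ggh (0.89), Wfdc12 (0.88), Gm5154 (0.83), Scgb2b27 (0.82), Mup5 (0.81), Etv1 (0.79) and Elapor1 (0.78). Lpo encodes lactoperoxidase, an antibacterial enzyme of saliva and milk, Dnase1 a secreted DNA-digesting enzyme and Ggh gamma-glutamyl hydrolase. 2310057J18Rik ran over 3.65 to 13.28, as wide as the members, and Lpo over 5.45 to 11.44. Native lymphoma 8740 held the highest value for 10 of these 12 genes, the others being Dcpp2 (CTX 4h lymphoma 9189) and Scgb2b27 (native lymphoma 9820). Without lymphomas 9820 and 8740 the 12 correlations were 0.81 (Etv1) to 0.99, and the count of genes at 0.5 or above was 69 in place of 83. The 12 then ranked within the first 15 genes. The transcription factor gene Etv1 and Elapor1 moved far less, over 5.47 to 9.11 and 5.42 to 8.30.

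Of the other salivary secretory genes, 8 of 21 measured had a correlation of 0.5 or above. They included Scgb1b27 (0.72), Pigr (0.75), which carries antibodies into saliva, and Prpmp5 (0.72). Scgb1b2 did not follow, with 0.07, and its highest value was 12.59 in CTX 4h lymphoma 9160, where Bpifa2 was at 12.62 and Prol1 at 3.40. Among 11 granular duct kallikrein and growth factor genes, products of the submandibular ducts, none reached 0.5, the highest being 0.48. Of 16 gland acinar and duct cell genes 6 did, among them the transcription factor genes Elf5 (0.65) and Ehf (0.60), the chloride channel gene Ano1 (0.63) and the water channel gene Aqp5 (0.57). Bhlha15, a regulator of secretory cells that plasma cells use too, had -0.10. Of 9 epithelial keratin and junction genes Krt18 (0.60) and Krt8 (0.51) passed 0.5. Without native lymphomas 9820 and 8740 the counts at 0.5 or above were 9 of 21, 0 of 11, 6 of 16 and 1 of 9 in these lists, with Krt18 at 0.57 and Krt8 at 0.499.

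The myoepithelial list and the lists of other tissues did not follow in this way. None of 6 myoepithelial, 10 exocrine pancreas, 7 stomach, 6 lung, 5 milk, 11 skeletal muscle, 7 adipocyte, 3 thyroid and 3 skin genes had a correlation of 0.5 or above. The same held for 7 B-cell, 5 T-cell and 6 macrophage genes. All 12 of these lists also had 0 genes at 0.5 or above without native lymphomas 9820 and 8740. The median correlation of the B-cell genes was -0.08, and the mean level of the B-cell genes lay within 9.57 to 11.83 in CTX 4h and 9.56 to 11.93 in native arrays, above the median over all genes of any array (6.53 to 7.11). The milk genes reached 0.48 at most, and the stomach and lung genes, other tissues where Chia1 is known to be made, 0.32 and 0.26.

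**Figure D5:**
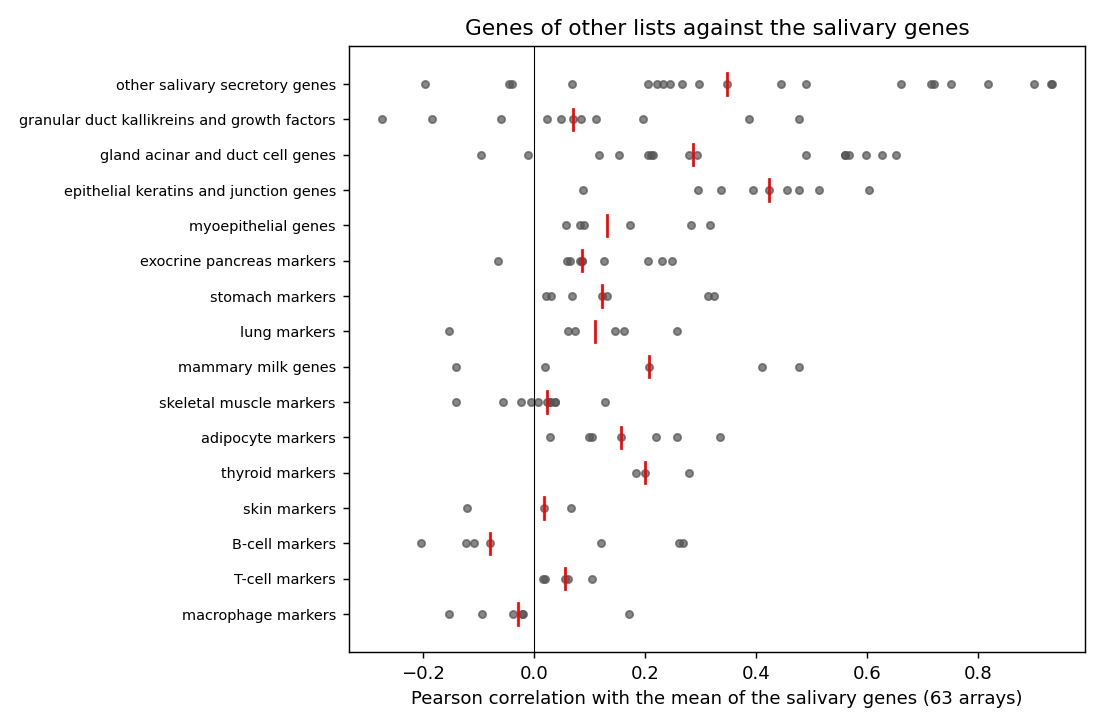
Pearson correlation over 63 arrays of each gene of 16 lists (points, with the list's median in red) with the mean of the 10 salivary genes. Values above 0.5 occur in the lists of other salivary, acinar and duct, and keratin and junction genes alone.

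Setting CTX 4h against native asks which transcripts differed after the drug. With RNA input in the model, limma called 281 genes higher and 251 lower of 19938 (Benjamini-Hochberg adjusted p under 0.05). That is 2.67% of all genes in either direction, 1.41% higher and 1.26% lower. Of the 10 salivary genes 2 were called higher, Bpifa2 and Amy1, and since the genes were chosen on these values nothing is read from this count. The fitted log2 differences of the members were 2.87 ± 0.85 (SE) for Bpifa2, 2.41 ± 0.71 for Amy1, 2.25 ± 0.75 for Smr3a, 2.15 ± 0.79 for Chia1 and 1.93 ± 0.81 for Pip. They were 1.81 ± 0.67 for Dcpp1, 1.69 ± 0.61 for Cst10, 1.54 ± 0.75 for Car6, 1.13 ± 0.55 for Dcpp3 and -0.10 ± 0.36 for Prol1. No member was called without the RNA input term, with a term for the first digit, with a common median, with a trended robust prior, in the 300 ng arrays alone or without the numbers in 1. Without the array titled as a repeat 1 member was called. Without native lymphoma 9820 the whole count was 1585 genes with 2 members among them.

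The treatment difference was above 0 at 100 ng for 9 of the 10 members, with Prol1 at -0.07, and below 0 at 300 ng for all 10, over 2 CTX 4h arrays that lay on opposite sides. The CTX 4h 300 ng array with a number in 8 was below the native mean of its kind for all 10 members (Bpifa2 by -5.10, Pip by -2.77). That with a number in 9 was above it for all 10 (Bpifa2 by 1.96, Pip by 2.32, Prol1 by 0.0403). At 100 ng Bpifa2 differed by 3.68 ± 0.83 (SE) and Pip by 2.34 ± 0.77, with 29 CTX 4h and 15 native arrays. At 300 ng the differences were -1.63 ± 2.21 and -0.30 ± 2.39, with 2 CTX 4h and 17 native arrays. Among 100 ng arrays with numbers in 1, the mean of Bpifa2 was 6.41 ± 1.66 (SD, 6 arrays) for CTX 4h, against 5.24 ± 0.12 (SD, 7 arrays) for native. With numbers in 8 the CTX 4h mean was 10.20 ± 3.39 (SD, 9 arrays), against a native mean of 7.68 ± 1.0 (SD, 3 arrays). With numbers in 9 the CTX 4h mean was 11.13 ± 2.49 (SD, 14 arrays), against a native mean of 6.58 ± 1.75 (SD, 5 arrays). CTX 4h was higher in all 3 sets with overlapping values. The test of the difference between inputs, an interaction term, called 4 genes by limma (0.0201%, with 0.015% higher and 0.00502% lower) and 0 of the 10 members, with 1090 genes at an unadjusted p under 0.05. With 2 CTX 4h arrays at 300 ng its errors are wide. Bpifa2 had an interaction of -5.31 ± 2.27 (SE) and Pip of -2.64 ± 2.24.

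The comparison of 300 ng with 100 ng native lymphomas covered 17 and 15 arrays. It called 27 genes higher (0.135% of 19938) and 3 lower (0.015%), 0.15% in all. Only the 100 ng labels state that the cells were not purified, so RNA input and this label cannot be told apart here. Of the 10 members 5 were called higher at 300 ng (Bpifa2, Smr3a, Amy1, Cst10 and Chia1), a count that the choice of genes fixes in part and from which nothing is read. Without native lymphoma 9820 the test called 181 genes and 9 of the 10 members. The members' log2 differences were 4.998 ± 0.83 (SE) for Bpifa2, 4.13 ± 0.79 for Smr3a, 3.97 ± 0.86 for Chia1, 3.92 ± 0.77 for Amy1 and 3.60 ± 0.94 for Pip. They were 3.30 ± 0.68 for Cst10, 3.15 ± 0.89 for Car6, 3.11 ± 0.71 for Dcpp1, 2.45 ± 0.61 for Dcpp3 and 0.39 ± 0.54 for Prol1. With lymphoma numbers in 8 and 9 alone, 17 against 8 arrays, limma called 0 genes, while 1678 had an unadjusted p under 0.05. The differences there were 4.18 ± 1.09 (SE) for Bpifa2 and 2.62 ± 1.24 for Pip. Within numbers in 8 the Bpifa2 mean was 11.32 ± 3.40 (SD, 11 arrays) at 300 ng, against 7.68 ± 1.0 (SD, 3 arrays) at 100 ng. Within numbers in 9 it was 10.91 ± 2.82 (SD, 6 arrays) at 300 ng, against 6.58 ± 1.75 (SD, 5 arrays) at 100 ng.

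The 12 genes most like the members were chosen by correlation with them over these same arrays, so nothing is read from their calls. Among these 12, BC037156 alone was called for 300 against 100 ng native lymphomas, with 2.16 ± 0.47 (SE, limma adjusted p = 0.0423). 2310057J18Rik missed with 3.87 ± 0.88 (SE, limma adjusted p = 0.0512). Without native lymphoma 9820, limma also called 2310057J18Rik with 4.03 (adjusted p = 0.0402) and Dcpp2 with 2.04 (adjusted p = 0.0491). For CTX 4h against native and for the interaction none of the 12 was called. With array weights 2310057J18Rik (2.33, limma adjusted p = 0.0291), BC037156 (1.13, adjusted p = 0.0357) and Dcpp2 (1.19, adjusted p = 0.049) were called for CTX 4h against native. That setting called 5828 of all 19938 genes. Of the other 21 salivary secretory genes 0 were called in either comparison, with medians of 0.13 for CTX 4h against native and 0.25 for 300 against 100 ng, where the medians over all genes were -0.01 and 0.01. The smallest adjusted p in this list was 0.254 (Dmbt1) in the first comparison and 0.060 (Dnase1) in the second. The gland acinar and duct cell genes had 0 of 16 called, Creb3l1 being nearest with 0.32 ± 0.10 (SE, adjusted p = 0.0673) in CTX 4h against native. Creb3l1 was called higher without native lymphoma 9820 (0.35, limma adjusted p = 0.0246) and without both 9820 and 8740 (0.36, adjusted p = 0.00485). The epithelial keratin and junction genes had 0 of 9 called, with Krt18 at 0.39 ± 0.19 (SE, adjusted p = 0.28).

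Of the genes in the adipocyte list, 2 of 7 were called higher in CTX 4h. These were Lpl with 1.17 ± 0.27 (SE, limma adjusted p = 0.00723) and Fabp4 with 0.88 ± 0.26 (SE, adjusted p = 0.0455). Neither was called in the 100 ng arrays alone, in the 300 ng arrays alone or without numbers in 1. The mean level of the 7 genes lay within 6.84 to 11.49 in CTX 4h and 6.87 to 10.42 in native arrays, and the list mean correlated with the salivary mean at 0.19. The list's median difference was 0.88 for CTX 4h against native, and its part in the members' differences was not tested. None of the 7 was called for 300 against 100 ng. In the lists of kallikreins (11), myoepithelial (6), exocrine pancreas (10), stomach (7), lung (6), milk (5), skeletal muscle (11), thyroid (3), skin (3), B-cell (7), T-cell (5) and macrophage genes (6), 0 were called in any of the 3 comparisons. A level in such whole samples cannot tell more cells that hold a transcript from more RNA per cell. The source of the salivary transcripts was not tested.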

How the data were processed

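RNA of 63 lymphoma samples was measured on Affymetrix expression arrays. The deposited values are log2 expression values, with RMA and Partek 6.5 listed in the submitters' processing notes. Scanner files were not used here, and the sources used here do not say which arrays were normalized together. RMA compresses differences of dim genes, and the number of arrays limits the precision. Of 35557 probe sets, the platform annotation gives 1 symbol for 21789, more than 1 for 1621 and no listed symbol for 12147, and 21698 of the 21789 matched RefSeq GRCm38.p6, used for names and promoters. A gene with more than 1 such probe set was read from the brightest by its mean over arrays, which left 19938 genes.

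Groups came from the treatment label. The members, the 16 gene lists and the tests were chosen with earlier results of these data known. limma 3.58.1 in R 4.3.3 (lmFit, eBayes, two-sided, Benjamini-Hochberg over all genes) fitted treatment with RNA input, RNA input within native arrays, and their interaction. Tested on simulated data for CTX 4h against native over 19938 genes, it called 77 of 100 genes changed by 0.5 (log2), 97 of 100 changed by 1 and 5 of 19738 unchanged genes. Of 1953 array pairs 0 were identical, the highest correlation being 0.995. Each array has its own lymphoma number, but no label states separate mice. The spread behind the p-values may therefore not be one between independent mice, and may in part be technical. Named genes are the 10 members, the 12 genes most correlated with them and up to 3 genes of each list with the smallest p for CTX 4h against native. Genes named besides these for their correlation or their levels were chosen after their values were seen. Alternatives were other covariates, subsets, normalizations, thresholds and filters. Figures were drawn with matplotlib 3.10.9.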

Additional observations from a re-analysis of the deposited data

Results flagged for a closer look

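A gap criterion for a single far value (Dixon) was applied to each gene within sets of 4 to 10 arrays of the same treatment, RNA input and first digit of the lymphoma number, which gave 2 far values in 50 uses. The genes were chosen for values that differ between these arrays, so this is a description. Without such a choice, chance gives about 1 in 20. Both lie among the 5 native 100 ng arrays with numbers that begin with 9. Smr3a was at 7.03 in native lymphoma 9188, against 4.44 to 5.03 in the other 4 arrays. Prol1 was at 11.40 in native lymphoma 9820, against 3.59 to 4.82 in the other 4 arrays.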

How the results depend on the processing

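No paired analysis was possible because each array has its own lymphoma number and the repeat numbers in the titles tie no CTX 4h array to a native one. For CTX 4h against native, 532 genes were called in either direction. The count was 301 without the RNA input term, 50 in the 100 ng and 352 in the 300 ng arrays alone, 208 with the first digit as a term, 338 with a common median and 5828 with array weights. Alternatives added after seeing the data gave 1585 without native lymphoma 9820, 2495 without native lymphomas 9820 and 8740, and 110 without numbers that begin with 1. Members called were 8 with array weights and 6 without both arrays. For 300 against 100 ng native, 30 genes were called. The count was 19 with a common median, 164 with quantile normalization, 0 with numbers in 8 or 9 alone (limma, 1678 at an unadjusted p under 0.05) and, added later, 181 without native lymphoma 9820, with 9 members called. The interaction gave 4 genes, 18 with quantile normalization and, added later, 0 without numbers in 1 (limma, 1671 at an unadjusted p under 0.05). On arrays were 22 for CTX 4h (14 as reported) with a limit of 1 log2 unit, and 8 for native (13 as reported) with the limit at each gene's widest gap. In the 300 ng arrays alone the differences turned to -1.63 for Bpifa2, -0.0819 for Amy1, -0.46 for 2310057J18Rik, -0.56 for BC037156, -0.84 for Dcpp2 and -0.56 for Krt18. Fabp4 turned to -0.0525 for 300 against 100 ng with numbers in 8 or 9 alone. Lpl was no longer called in CTX 4h against native in the 100 ng arrays (1.12), the 300 ng arrays (1.46), without the RNA input term (0.62) and without numbers in 1 (0.999), and Fabp4 under 8 alternatives. BC037156 was no longer called for 300 against 100 ng under 3 alternatives. Calls were gained by Creb3l1 for CTX 4h against native under 4 alternatives, by Krt18 (0.50), 2310057J18Rik, BC037156 and Dcpp2 with array weights, and for 300 against 100 ng by 2310057J18Rik with quantile normalization (3.82) and, with Dcpp2, without native lymphoma 9820. The cause of these shifts was not tested, and nothing is read from the calls of genes chosen for likeness to the members. The other 26 counts and correlations moved by less than 1.5 times or less than the spread.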
